A study of Homo sapiens with 12 samples.

Results

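The 8 genes described here stood out in the mCherry control of a study on HCT116 cells, an established human colorectal cancer line. They are XDH, CCDC141, DLEC1, TNIP3, MARCHF1, SV2C, TENM2 and INIP, 8 of the 63677 Ensembl genes in the table, chosen by being highest in the mCherry libraries. Their excess in mCherry is therefore a description of how they were selected, given without a test. The 3 comparisons among the other groups did not enter that choice as such, and these were tested. The levels of those groups did enter it, being the ones mCherry had to exceed, and the fit takes its spread from all 12 libraries.

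The study measured polyA RNA in 4 groups of 3 libraries. All groups were HCT116 clones of 1 construct each, treated with doxycycline (labelled 1 ug/ul, and 48 ahead of RNA extraction, the unit of time being left out), and the controls had the drug too. The mCherry group expressed a red fluorescent protein, the CR3 group a peptide described as perturbing condensates, and the scramble and reverse groups variants of the peptide. How many clones stand behind a construct, and whether the 3 libraries of a group were separate cultures, is stated nowhere in the labels, so a difference between constructs and a difference between clones cannot be told apart, and p-values measure only the spread between these libraries. Libraries held 17431142 to 23566084 reads assigned to genes. The epithelial genes EPCAM (5081 normalized reads in mCherry), KRT8 and KRT18 were abundant in all groups, while VIL1 (1.19) and LGALS4 (2.68) were near 0 and CEACAM6 had no read. Values are normalized reads, the reads of a gene divided by the size factor of the library, as mean ± SD over 3 libraries. In these libraries 1 read is worth 0.84 to 1.07 normalized reads.

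The genes have unlike roles. XDH makes xanthine oxidoreductase, which turns hypoxanthine into xanthine and xanthine into uric acid at the end of purine breakdown. TNIP3 makes a partner of the ubiquitin-editing protein A20 that restrains NF-kB signaling, and MARCHF1 a membrane ubiquitin ligase known for removing MHC class II and CD86 from the surface of antigen-presenting cells. SV2C is a glycoprotein of synaptic vesicles, and TENM2 a teneurin, a large adhesion protein that binds latrophilins across synapses. INIP is a small subunit of the SOSS complex, which binds single-stranded DNA at breaks together with INTS3 and NABP1 or NABP2. DLEC1 was described as a gene often silenced in lung and esophageal cancer and is found in motile cilia, and CCDC141 is a coiled-coil protein linked to centrosomes and neuron migration.

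The 250 bases before the RefSeq starts of transcription differed widely among these genes, and 4 of them are shown because they span that range. The windows come from RefSeq on GRCh38.p14, which had 12 windows for 7 of the 8 genes and none for INIP, and they are written in the direction of the gene. RefSeq starts can differ from the GENCODE gene positions given below. The SV2C window runs past the GENCODE start at 76083172 and so lies mostly inside that gene body. A TENM2 window ends at 167073241, far before the GENCODE start at 167284799. They lie at chr2:31414743-31414992 on the minus strand for XDH, chr3:38038958-38039207 on the plus strand for DLEC1, chr4:121227484-121227733 on the minus strand for TNIP3 and chr5:76083133-76083382 on the plus strand for SV2C. Capitals mark matches, on either strand and without overlap, to 6 motifs. The general promoter elements among them were the TATA box, searched as TATAAA and found in 10.7% of all windows, the CCAAT box (32%) and the GC box, searched as GGGCGG (42.6%). The binding motifs of regulated factors were the one of AP-1, searched as TGACTCA and found in 4.2% of windows, the E-box, searched as CACGTG and found in 6.34%, and the consensus of NF-kB (9.96%).
XDH: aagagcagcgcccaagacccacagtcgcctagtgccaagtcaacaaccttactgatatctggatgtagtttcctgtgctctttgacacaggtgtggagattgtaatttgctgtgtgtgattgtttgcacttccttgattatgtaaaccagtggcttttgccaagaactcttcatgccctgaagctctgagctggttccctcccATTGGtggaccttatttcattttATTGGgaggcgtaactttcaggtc
DLEC1: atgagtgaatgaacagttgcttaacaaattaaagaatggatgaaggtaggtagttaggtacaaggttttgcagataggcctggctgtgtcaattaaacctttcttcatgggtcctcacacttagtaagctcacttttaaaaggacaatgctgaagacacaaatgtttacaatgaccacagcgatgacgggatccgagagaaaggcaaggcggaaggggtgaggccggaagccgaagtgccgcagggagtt
TNIP3: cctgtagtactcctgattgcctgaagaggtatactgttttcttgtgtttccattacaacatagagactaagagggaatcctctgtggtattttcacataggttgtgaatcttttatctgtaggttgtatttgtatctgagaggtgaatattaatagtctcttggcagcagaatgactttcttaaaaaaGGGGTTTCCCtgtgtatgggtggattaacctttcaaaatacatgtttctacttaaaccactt
SV2C: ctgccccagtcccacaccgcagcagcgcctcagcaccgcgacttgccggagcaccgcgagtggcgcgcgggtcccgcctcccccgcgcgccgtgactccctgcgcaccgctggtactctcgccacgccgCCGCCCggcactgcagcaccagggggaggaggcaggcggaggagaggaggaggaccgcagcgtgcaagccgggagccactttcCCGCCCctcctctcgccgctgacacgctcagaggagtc

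The window shown for TNIP3, 1 of 3, had no CpG and that of SV2C had 30, against a median of 11 over 35116 windows of the same length. XDH held 3 CpG and DLEC1 held 7. The capitals in XDH are a pair of CCAAT matches on the other strand. In TNIP3 they are 1 match to the NF-kB consensus, and in SV2C a pair of GC box matches on the other strand. DLEC1 held none of the 6 motifs. The 3 other genes with windows also differed: CCDC141 held 3 CpG, the windows of MARCHF1 held 23, 2 and 9, and those of TENM2 held 1 and 4. Neither AP-1 nor E-box letters were present in any of the 12 windows, and no motif was present in all 7 genes. Of the other TNIP3 windows, 1 also held an NF-kB match, beside a TATA box. A match describes letters only.

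In mCherry cells 7 of the 8 genes reached 18.7 to 58.1 normalized reads, and INIP, abundant in every group, stood at 1717 ± 59.1 (n = 3). In the other 9 libraries XDH, CCDC141, TNIP3, MARCHF1, SV2C and TENM2 had 0 to 4 reads each, DLEC1 had 6 to 23, and INIP stood at roughly its mCherry level divided by 2 (ratios of 1.96 to 2.18). No mCherry library overlapped any other library in any of the 8 genes, in keeping with how they were chosen and with lost decimal marks restored using the group labels. Restored without the labels, CCDC141 has 2 reads in mCherry library 3, fewer than the 3 reads of scramble library 2. In bulk RNA, more cells with a transcript and more transcript per cell cannot be told apart.

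XDH (ENSG00000158125, GRCh38 chr2:31334321-31414715, minus strand, as all positions here from GENCODE release 29) had 26, 32 and 30 reads in mCherry, 1, 1 and 0 in CR3, 0, 1 and 0 in scramble and none in reverse. The 3 mCherry libraries stood together, at 27.2, 26.9 and 32 normalized reads. The mean of 28.7 ± 2.87 was 47.5 times that of CR3, with an exact 95% counting interval of 12.1 to 377, and at least 9.68-fold above reverse against a floor of 3 reads per library. Such intervals and floors cover counting error only. The value of 30 reads in mCherry library 3 rests on the power of 10 chosen for it: its digits also allow 3 reads, the reading obtained when the group labels are not used.

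TNIP3 (ENSG00000050730, chr4:121131408-121227466, minus strand) had 11, 29 and 19 reads in mCherry, 2, 0 and 1 in CR3 and none in scramble or reverse. Its mCherry libraries were spread, with the highest normalized value 2.12 times the lowest. The mean of 18.7 ± 6.59 was at least 6.76-fold above scramble and at least 6.32-fold above reverse, and 19.2 times CR3 (counting interval 6.55 to 100).

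MARCHF1 (ENSG00000145416, chr4:163524298-164384050, minus strand) was the most even of the 8 within mCherry. Its 23, 28 and 22 reads became 24, 23.6 and 23.5 normalized reads, a mean of 23.7 ± 0.30. CR3 libraries had 2, 2 and 1 reads, scramble 4, 0 and 3, and reverse 1, 0 and 1. The mCherry mean was 15.2 times CR3 (counting interval 6.11 to 47.3), 11 times scramble and 36.6 times reverse.

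SV2C (ENSG00000122012, chr5:76083172-76353939, plus strand) had the largest number of reads among the low genes, 38, 99 and 48 in mCherry. The second mCherry library was highest at 83.3 normalized reads, and the group mean was 58.1 ± 22.6. CR3 had 1, 3 and 0 reads, scramble none, and reverse 0, 0 and 2. That put mCherry at 48.8 times CR3 (counting interval 18.2 to 175), at least 21-fold above scramble and 96.8 times reverse (25 to 761).

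TENM2 (ENSG00000145934, chr5:167284799-168264157, plus strand) had 33, 38 and 26 reads in mCherry, a mean of 31.4 ± 3.40 normalized reads. A few reads were present in each other group: 3, 0 and 0 in CR3, 0, 1 and 4 in scramble, and 2, 4 and 1 in reverse. The ratios were 33.6 to CR3 (counting interval 11 to 163), 21.2 to scramble and 13.3 to reverse.

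CCDC141 (ENSG00000163492, chr2:178829757-179050086, minus strand) had 27, 19 and 20 reads in mCherry, or 28.2, 16 and 21.3 normalized reads. CR3 had 1, 0 and 0 reads and reverse had none, and in scramble all 3 reads fell in the second library. The mean of 21.8 ± 6.13 was 70.1 times CR3 (counting interval 11.7 to 2.7e+03), 23.4 times scramble (7.6 to 115) and at least 7.37-fold above reverse. As with XDH, the value of mCherry library 3 could be smaller by 1 power of 10: its digits allow 2 reads in place of 20.

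DLEC1 (ENSG00000008226, chr3:38039205-38124025, plus strand) was detected in every library. It had 42, 56 and 57 reads in mCherry, 18, 23 and 11 in CR3, 8, 8 and 10 in scramble and 8, 6 and 11 in reverse. Group means were 50.6 ± 8.99, 16.2 ± 4.27, 7.97 ± 0.69 and 8.12 ± 1.89, so that mCherry was 3.12 times CR3, 6.35 times scramble and 6.23 times reverse. The CR3 libraries lay between mCherry and the 2 variants and overlapped neither.

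INIP (ENSG00000148153, chr9:112683926-112718236, minus strand) had by far the best counting precision. Its normalized reads were 1669, 1783 and 1699 in mCherry, 775.4, 821.9 and 767.4 in CR3, 878.5, 875.9 and 874.0 in scramble, and 892.6, 851.8 and 821.2 in reverse. The mCherry mean was 2.18 times CR3 (counting interval 2.08 to 2.29), 1.96 times scramble (1.88 to 2.06) and 2.01 times reverse (1.93 to 2.12). Below mCherry the order was scramble (876.2 ± 2.27), reverse (855.2 ± 35.8) and CR3 (788.2 ± 29.4), and scramble and reverse overlapped, as CR3 and reverse did by 1 library.

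**Figure D1:**
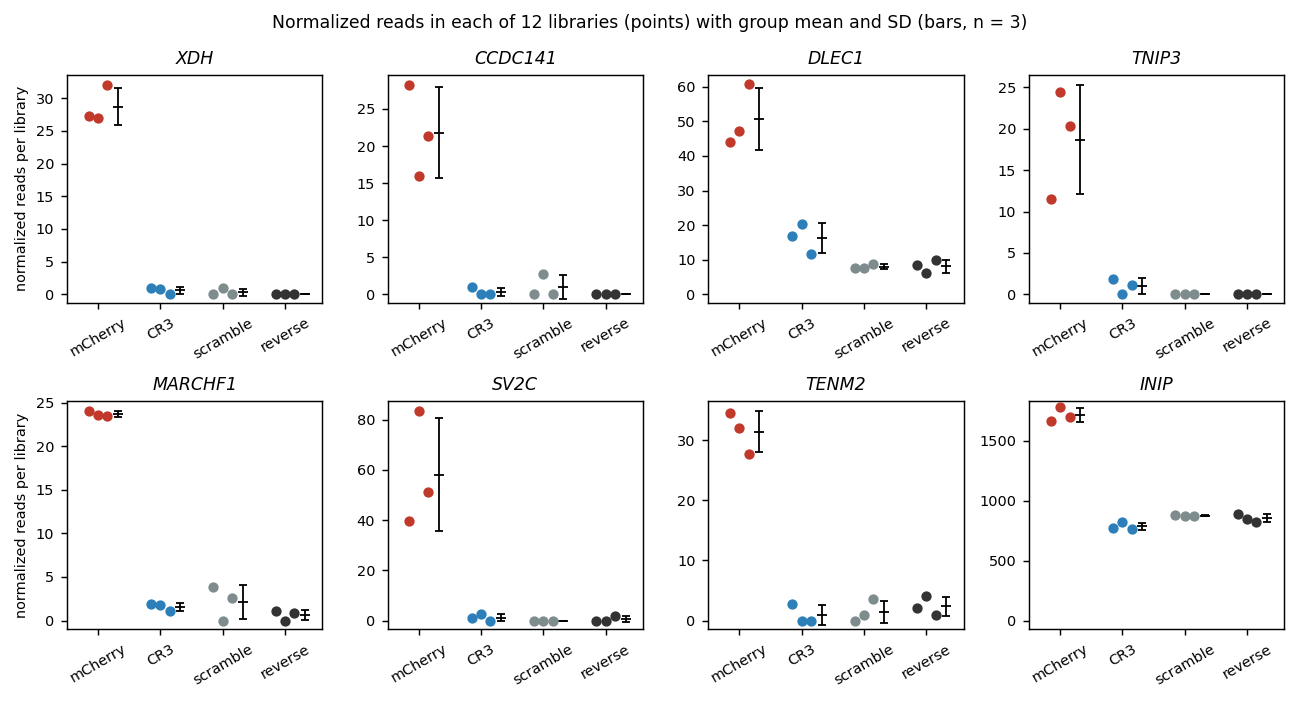
Normalized reads (y axis, linear, from 0) of the 8 genes in each of the 12 libraries, with points for libraries by group and bars for the group mean and SD (n = 3). All mCherry points lie above all others in each panel, DLEC1 also has reads in every other library, and INIP differs from the rest in level, at 1717 in mCherry and 788.2 to 876.2 elsewhere.

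Per kilobase of exon the mCherry levels, in normalized reads, were 388 ± 13.4 for INIP, 6.07 ± 1.08 for DLEC1, 4.97 ± 1.75 for TNIP3, 4.83 ± 1.88 for SV2C, 4.75 ± 0.476 for XDH, 2.84 ± 0.308 for TENM2, 2.27 ± 0.0287 for MARCHF1 and 1.41 ± 0.397 for CCDC141. The 4 genes from DLEC1 to XDH were within their spread of one another, their libraries overlapping. INIP stood far above the other 7, in every group.

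All 8 genes were among the 34 of 15446 tested genes (0.22%) called higher in mCherry than in CR3, scramble and reverse at once with limma, a linear model across all genes, at a Benjamini-Hochberg adjusted p under 0.05. For these genes that count follows from the choice. The 34 became 65 with every gene of at least 1 read tested, 7 with at least 50 reads asked in 3 libraries, 4 with decimals restored without the group labels, and 6, 6 and 10 without mCherry library 1, 2 or 3, when 6 of the 8 genes no longer pass the filter on reads. The number in the opposite direction was 0 with limma, and 44 at an unadjusted p under 0.05, where the higher direction had 99. Ranked by the smallest of the 3 log2 ratios of group means, with 1 added to each mean, the members held places 3, 8, 13, 15, 16, 19, 27 and 29 of 34. PIEZO2, a mechanosensitive ion channel (72.5 normalized reads in mCherry, at most 0.32 in another group), and SLC26A3, an intestinal chloride exchanger (35.1, with no read in the other 9 libraries), ranked above all members. Around the lowest member, INIP at 0.97, came NCKAP1L at 1.12 and CREB3L1 at 0.69. Of the 34 genes, 27 had under 20 normalized reads on average in each other group, so most were of the same low kind as 7 of the members. For comparison, 1693 genes passed in the higher direction for CR3 against its 3 counterparts, 20 for scramble and 26 for reverse.

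**Figure D2:**
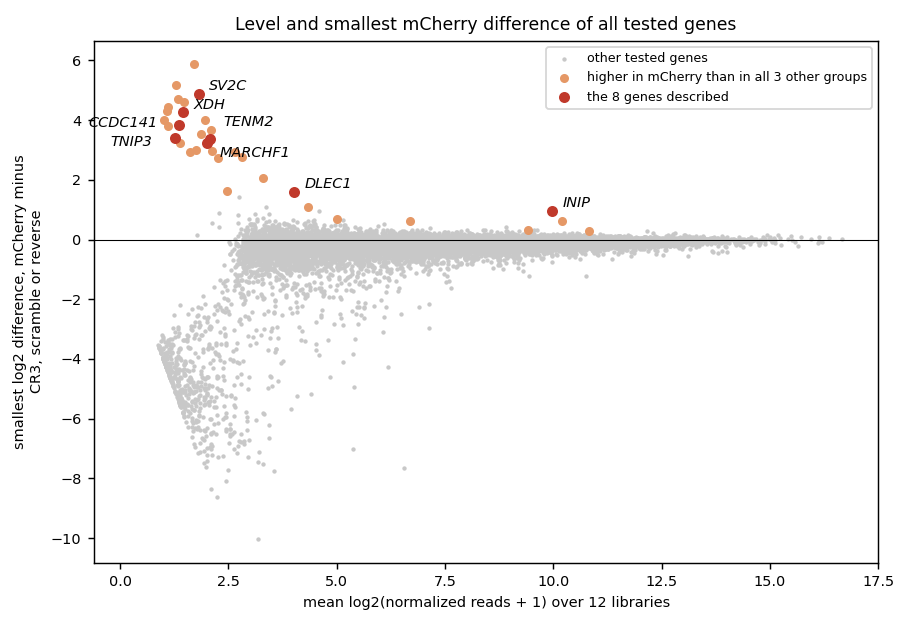
Mean level of each of the 15446 tested genes over 12 libraries (x axis, log2 of normalized reads + 1) against the smallest of its 3 log2 differences of mCherry from CR3, scramble and reverse (y axis). The 8 genes are in red and the other 26 of the 34 genes called higher in mCherry in orange. Most of the 34 lie at low mean level, while INIP is 1 of the few at high level.

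The genes whose profile over the 12 libraries was most like the mean standardized profile of the 8 were SLC6A5 (Pearson r 0.991), SLC26A3 (0.99), ESR1 (0.99), PIEZO2 (0.983) and MRGPRX3 (0.979). These correlations describe 3 libraries against 9. SLC6A5, a glycine transporter of nerve endings, had 11.5, 16.8 and 18.1 normalized reads in mCherry. ESR1, the estrogen receptor alpha gene, had 21.9, 17.7 and 11.7. MRGPRX3, of the Mas-related receptor family, had 35.5, 32.8 and 27.7. Together SLC6A5, ESR1 and MRGPRX3 had at most 1 read each in the other 9 libraries.

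For the comparisons among CR3, scramble and reverse, DLEC1 and INIP were the 2 members with enough reads. The filter on low reads was passed by all 8, but by XDH, CCDC141, TNIP3, MARCHF1, SV2C and TENM2 only through their mCherry libraries. At 0 to 4 reads a difference of these 6 among the other groups was hardly detectable, and none is read as a result. In CR3 against scramble DLEC1 passed as higher and INIP as lower, where 37.8% of all tested genes passed. Against reverse DLEC1 passed, where 33.6% of all genes did. Between reverse and scramble limma called neither, also 0 at an unadjusted p under 0.05, against 0.46% of all genes.

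DLEC1 was higher in CR3 than in scramble, by 0.91 ± 0.26 (SE) on the log2 scale of normalized reads + 1, with a limma adjusted p of 0.0114, and higher than in reverse by 0.91 with an adjusted p of 0.0134. All 3 CR3 libraries (11.7 to 20.2) lay above all 6 libraries of scramble (7.48 to 8.77) and reverse (6.14 to 9.89). Both calls are close to the threshold. Without the second CR3 library the differences were 0.75 and 0.74 with adjusted p of 0.0912 and 0.0987, without the first CR3 library 0.87 and 0.87 with 0.0564 and 0.0658, and without the second reverse library the one against reverse was 0.74 with 0.0652.

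INIP in CR3 fell by 0.15 ± 0.05 (SE) on the log2 scale against scramble, with a limma adjusted p of 0.0328, and against reverse the log2 difference was -0.12 with an adjusted p of 0.104. The CR3 libraries (767.4 to 821.9) lay below the scramble ones (874.0 to 878.5). This call was lost when libraries were scaled by their totals alone, with a difference of -0.06 and an adjusted p of 0.392, or by the upper quartile (-0.12, 0.0959). It was also lost without CR3 library 1 or 3 (adjusted p 0.106 and 0.137) or without scramble library 1, 2 or 3 (0.0825, 0.0763 and 0.0733).

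The 7 lists of related genes were written with earlier results of these data known, and their counts leave out the 8 genes. Of 100 tested genes of the lists, limma called 0 higher in mCherry than in all 3 other groups (also 0 at an unadjusted p under 0.05), where 0.22% of all genes were called. The counts for CR3 in each list stand beside 37.8% of all tested genes called against scramble (2957 higher, 2884 lower) and 33.6% against reverse (2615 higher, 2582 lower). Those for mCherry stand beside 1.54% of all tested genes called against scramble and 0.647% against reverse, in either direction. At those shares 0 calls in a list of 8 to 21 genes says little. The share of all genes at an unadjusted p under 0.05 is not given for these comparisons, so nothing is read from such list counts.

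Of the synaptic vesicle list, 12 genes besides SV2C were tested. In CR3, 5 rose and 1 fell against scramble, where 37.8% of all genes were called, and 5 rose and 1 fell against reverse (33.6%). SV2A and SYN1 passed the filter on reads only through CR3, so nothing is read from these counts. SV2A, the paralog that binds the drug levetiracetam, had 261.4 ± 17.4 normalized reads in CR3. Its levels were 5.86 ± 0.76 in scramble, 5.34 ± 2.60 in reverse and 4.73 ± 3.31 in mCherry. They are given without a test, since only CR3 brought SV2A past the filter. SV2C was in the other order, 58.1 in mCherry and 1.19 in CR3. SV2B had at most 9.07 ± 8.80 (CR3) and was not tested. The calcium sensor SYT1 in CR3 fell by 0.38 against scramble (adjusted p 1.34e-05).

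In the teneurin list 8 genes besides TENM2 were tested, but TENM1, TENM4, ADGRL2, ADGRL3 and UNC5C passed the filter on reads only through their CR3 libraries and so had to be higher there. The 7 genes called higher in CR3 against scramble, and 7 against reverse, are therefore not read against the 37.8% and 33.6% of all genes. TENM1 reached 76.4 ± 12.1 in CR3 and had no read in scramble or reverse, TENM3 stood at 155.4 ± 18.8 against 31.0 ± 9.58 in scramble, and TENM4 at 23.9 ± 4.37 against 5.75 ± 2.95. In the same CR3 libraries TENM2 had 0.93 ± 1.62. The latrophilin genes ADGRL2 and ADGRL3, receptors for teneurins, had 1.88 and 0.29 in scramble and 215.0 and 49.4 in CR3. Because of the filter these levels are given without a test. In mCherry, TENM1 (0.71), TENM3 (31.5), TENM4 (6.62) and ADGRL2 (1.76) were near their scramble levels. No gene of the list was called in mCherry against scramble or reverse, where 1.54% and 0.647% of all genes were called. The genes that passed the filter only through CR3 had few reads in these groups, so a difference there was hardly detectable. At an unadjusted p under 0.05 there were 0 against scramble and 2 against reverse.

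TNIP1 and TNIP2, the paralogs of TNIP3, were abundant in every group. TNIP1 stood at 1159 ± 100 normalized reads in mCherry and 996.4 to 1077 elsewhere, and TNIP2 at 918.4 ± 72.5 and 895.1 to 911.3. Of 16 tested genes in the list of NF-kB feedback targets, REL and BIRC3 rose in CR3 against scramble (log2 differences 0.38 and 0.40, limma adjusted p 0.00781 and 0.0381) and NFKB1 fell by 0.30 (adjusted p 0.00104), where 37.8% of all genes were called. Against reverse 0 rose and 2 fell (33.6% of all genes), and REL and BIRC3 did not pass, with log2 differences of 0.19 and -0.19 and adjusted p of 0.173 and 0.354. In mCherry none was called against scramble or reverse (1.54% and 0.647% of all genes), with 2 at an unadjusted p under 0.05 in each. TNFAIP3, which encodes A20 itself, had 79.1 normalized reads in mCherry and 79.3 in scramble, and NFKBIA had 400.4 and 403.3.

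In the list around MARCHF1, 11 other genes were tested, of which 5 rose and 1 fell in CR3 against scramble, where 37.8% of all genes were called, and 1 rose and 1 fell against reverse (33.6%). MARCHF10 would not pass the filter on reads without its CR3 libraries, but its mean was highest in mCherry. It had 11.7 ± 4.22 normalized reads there, 7.84 ± 3.38 in CR3 and 3.43 ± 2.87 in scramble. Its log2 differences of mCherry from scramble and reverse were 1.68 and 1.32, not called with limma (adjusted p 0.079 and 0.342). In mCherry 0 of the 11 genes were called against scramble or reverse with limma (1.54% and 0.647% of all genes), with 6 and 3 at an unadjusted p under 0.05. HLA-DRB1, an MHC class II chain, rose from 147.4 ± 20.1 in scramble to 315.9 ± 44.0 (log2 difference 1.09, limma adjusted p 4.25e-06), and the transferrin receptor TFRC, a substrate of MARCHF8, fell from 7435 to 4976. MARCHF8, the closest paralog, stood at 1254 ± 30.2 normalized reads in mCherry and 1157 to 1335 elsewhere. Of the genes that serve antigen presentation, CD74 had 7.41 normalized reads in mCherry, CIITA 2.32, and CD86 no read, all under the filter.

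For XDH, 21 other genes of purine breakdown and salvage were tested. In all, 2 rose and 4 fell in CR3 against reverse, where 33.6% of all genes were called. Against scramble 2 rose and 8 fell (37.8% of all genes), among them the guanine deaminase GDA, from 3422 ± 83.2 to 2875 ± 138 (limma adjusted p 0.00114), the nucleotidase NT5E (1408 to 1133, adjusted p 4.89e-05) and the kinase DCK (929.2 to 700.8, adjusted p 0.000766). In mCherry 1 of the 21 was called against scramble, where 1.54% of all genes were called. It was NT5E, lower in mCherry (log2 difference -0.21, limma adjusted p 0.0327). Against reverse 0 were called (0.647% of all genes), with 1 at an unadjusted p under 0.05. PNP, the enzyme before XDH in the pathway, had 2423 normalized reads in mCherry and 2602 in scramble.

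The partners of INIP had mCherry levels within the range of the other groups. INTS3 had 1935 ± 59.9 normalized reads in mCherry and 1887 to 2005 elsewhere, NABP1 686.6 ± 94.2 and 645.5 to 699.0, and NABP2 815.9 ± 36.8 and 722.6 to 842.8. Of 16 tested genes of the SOSS and Integrator complexes, 0 were called in mCherry against scramble or reverse (1.54% and 0.647% of all genes). The number at an unadjusted p under 0.05 was also 0. In CR3 0 rose and 3 fell against reverse, where 33.6% of all genes were called. Against scramble 0 rose and 4 fell (37.8% of all genes), among them INTS13 (log2 difference -0.32, limma adjusted p 0.00112), INTS12 (-0.25, 0.0104) and NABP2 (-0.22, 0.00707).

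In the list of cilium genes and partners of CCDC141 and DLEC1, 16 genes were tested. In CR3, 7 rose and 4 fell against scramble (37.8% of all genes called), and 5 rose and 4 fell against reverse (33.6%). KIF7, a ciliary kinesin of hedgehog signaling, is among those that rose but passed the filter on reads only through CR3. The counts that rose are therefore not read against these shares. KIF7 had 1.90 ± 1.92 in scramble and 153.5 ± 13.3 in CR3, given without a test. The chaperonin subunit CCT5 and the tubulin TUBB had log2 differences of -0.57 and -0.56 in CR3 against scramble and passed with limma. CCT5 and TUBB were also the 2 genes called lower in mCherry than in scramble (-0.21 and -0.18, limma adjusted p 0.0372 and 0.0465). In either direction 1.54% of all genes were called in that comparison. DISC1, which binds CCDC141, stood at 99.8 normalized reads in mCherry and 89.1 in scramble.

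**Figure D3:**
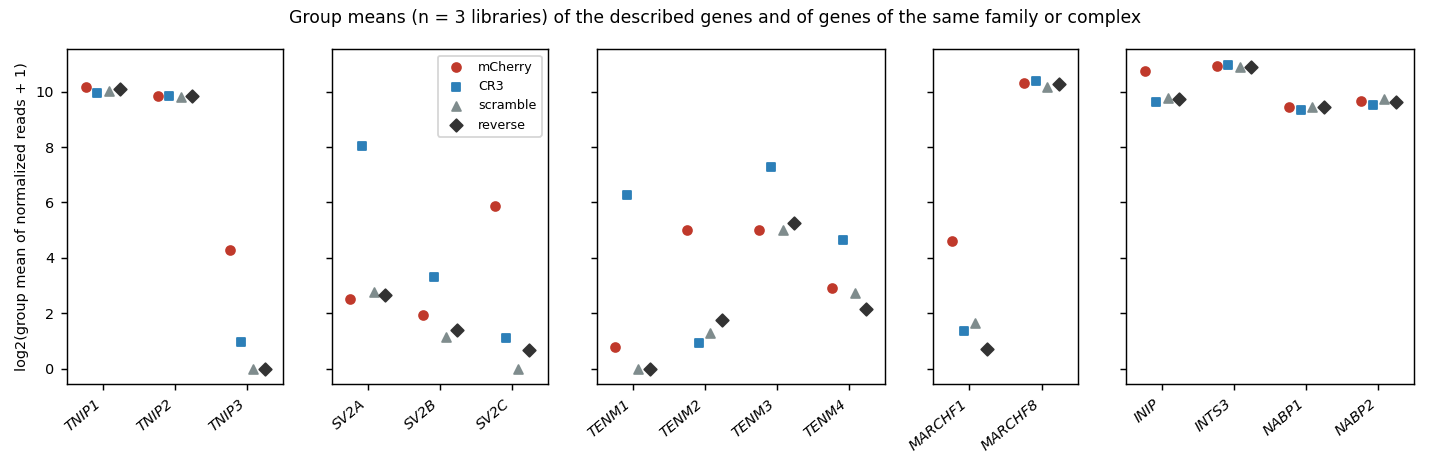
Group means (y axis, log2 of the mean of normalized reads + 1, n = 3 libraries) of TNIP3, SV2C, TENM2, MARCHF1 and INIP beside genes of the same family or complex, with 1 marker per group. TNIP3, SV2C, TENM2 and MARCHF1 have their highest marker in mCherry by a wide margin, and INIP by a smaller one of 0.97 to 1.12. SV2A, TENM1, TENM3 and TENM4 are highest in CR3, and the markers of the abundant partners lie close together.

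No tested gene beside the 8 on the chromosome was called in mCherry against scramble or reverse. Within 500 kb of the 8 gene bodies 55 other genes were tested. In mCherry against scramble limma called 0 of them, with 6 at an unadjusted p under 0.05, where 1.54% of all tested genes were called. Against reverse it called 0, with 4 at an unadjusted p under 0.05, where 0.647% of all genes were called, and against CR3 it called 16 (29.1%) where 28.6% of all genes were called. The mean of the 3 log2 differences of mCherry ranged from -1.45 to 0.66 over the neighbours, with a median of 0.01, and from 1.03 to 5.34 over the 8 genes.

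INIP lies 14.5 kb from KIAA1958, which had 394.7 normalized reads in mCherry and 405.3 in scramble, and 32.6 kb from SNX30, a sorting nexin (1090 and 1132). DLEC1 lies 9.4 kb from the phospholipase gene PLCD1 (312.6 and 281.6) and 14.5 kb from MYD88, an adaptor of Toll-like receptors (962.3 and 930.8). MARCHF1 lies 3.8 kb from TMA16 (695.0 and 700.1). SV2C lies 49.3 kb from IQGAP2 (118.5 and 97.5) and, on the other side, 365.7 kb from POC5 (491.0 and 539.9). TENM2 lies 27.5 kb from WWC1, an adaptor of the Hippo pathway (2146 and 2229). All of these pairs of values are mCherry and scramble means, and none of the differences passed with limma. Against CR3, limma called KIAA1958, SNX30 and IQGAP2 lower in mCherry and TMA16, POC5 and WWC1 higher, while PLCD1 and MYD88 were not called.

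Of the remaining nearest neighbours, none was called in mCherry against scramble or reverse. EHD3, 64.9 kb from XDH, had 0.64 normalized reads in mCherry, 62.2 in CR3 and none in scramble, and MEMO1, 450.3 kb away, had 52.1 in mCherry and 53.0 in scramble. NDNF, 58.4 kb from TNIP3, had 21.4 in mCherry, 29.4 in CR3 and 12 in scramble, and ANXA5 on the other side, 440.5 kb away, had 7136 and 6847 in mCherry and scramble. SESTD1, 51.6 kb from CCDC141, had 510.6 and 547.3, and TTN-AS1 on the other side, 49.8 kb away, had 164.5 and 165.4.

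Overlapping genes limit some of these values, since the strand setting of the counting is not given in the sources used here. CCDC141 overlaps TTN on the same strand over 1046 bp. TTN had 442.2 normalized reads in mCherry, 541.9 in CR3, 502.1 in scramble and 629.2 in reverse, and limma called no difference between these groups. DLEC1 overlaps ACAA1, a peroxisomal thiolase gene on the opposite strand, over 20897 bp. ACAA1 stood at 1091 in mCherry and 1055 to 1139 elsewhere. Inside TENM2 the antisense gene TENM2-AS1 had 42 reads over all libraries, 0.56 normalized reads in mCherry and 7.40 in scramble. INIP overlapped no annotated gene with a read, and DLEC1P1, a pseudogene of DLEC1 on chromosome 3, had 0 reads.

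**Figure D4:**
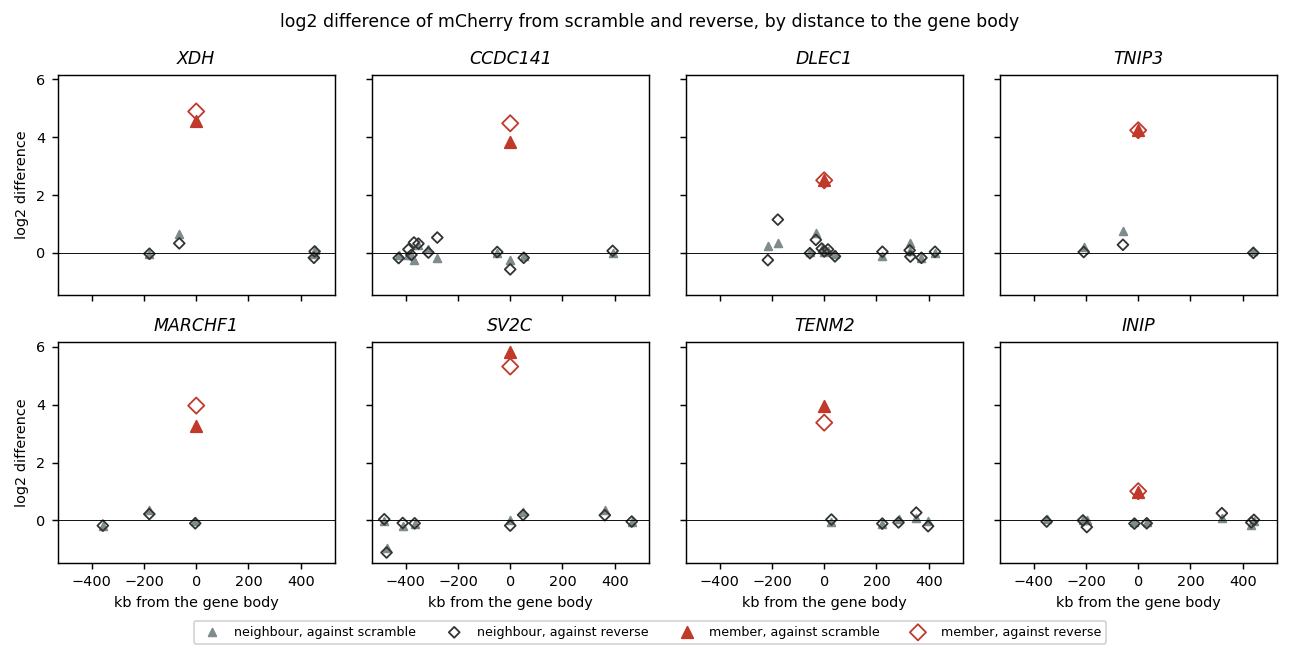
The log2 difference of mCherry from scramble (triangles) and from reverse (diamonds) for each of the 8 genes (red) and its tested neighbours (grey and black) by distance in kb from the gene body, where 0 is an overlap. The 8 genes stand between 0.97 and 5.82, and the neighbours between -1.11 and 1.15.

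White blood cell and endothelial markers were low in mCherry. The sum of 7 white blood cell markers was 5.05 to 11.5 normalized reads in the mCherry libraries, 9.35 to 13.4 in scramble and 3.07 to 9.37 in reverse, with PTPRC and TYROBP at 0 reads in all 12 libraries. In CR3 it was 1280 to 1402, of which LAPTM5 gave 1326. The sum of 5 neuron markers was 335.0 to 421.4 in mCherry and 353.9 to 364.7 in scramble, mostly TUBB3, with STMN2 at 0. Endothelial markers summed to 18.1 to 35.3 in mCherry and 20.1 to 30.8 in scramble, and PECAM1 had no read. The sum of 7 fibroblast markers was 776.7 to 1009 in mCherry, 797.7 to 836.3 in scramble and 1611 to 1871 in CR3. COL1A1 gave 806.8, 725.6 and 973.3 of it on average, and VIM 97.4, 77.8 and 764.4. The part of the CR3 marker sums in the CR3 differences of DLEC1 was not tested.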

How the data were processed

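PolyA RNA was sequenced from 12 HCT116 libraries, 3 for each of 4 constructs, grouped by their titles. Per the submitters' processing notes the build was GRCh38 and the tools included STAR, featureCounts and DESeq2. Tool versions, the strand setting and the annotation are not given in the sources. As the values themselves show, the deposited numbers are read counts scaled by the authors with 1 size factor per library, the decimal mark being lost from every value of 1 or more. Reads of the constructs were not analysed here.

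Reads were restored as whole multiples of each library's one-read value (all 265152 non-zero values within 1e-07). The power of 10 was chosen per gene by likelihood with the group labels, so libraries of 1 group may look closer than they are. Genes with a choice under a likelihood ratio of 20 were left out (713 of 16159 with at least 10 reads in at least 3 libraries). On simulated data 99.896% of values were recovered, but only 81.75% of CR3 values of genes made lower there. The simulated spread between libraries (dispersion 0.01) was the one the restoring assumes. For the 8 genes the smallest ratio was 308, and 21 of their 24 mCherry values are the smallest whole numbers their digits allow.

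Tests used limma 3.58.1 in R 4.3.3 on log2(normalized reads + 1), with a trend of variance on level, over all 12 libraries and 4 groups, two-sided, Benjamini-Hochberg adjusted over 15446 genes and called under 0.05. A log2 difference on that scale understates the change of low genes. In simulations for mCherry against scramble, 22 of 25 genes raised 2-fold and 25 of 25 raised 10-fold were called among 15249 genes. For CR3 against scramble, of 25 genes lowered 10-fold in CR3 only 5 could still be tested, and all 5 were called. The genes changed in these simulations averaged at least 10 reads per library before the change. Outside mCherry 6 of the 8 genes described lay below that, so these rates do not apply to them. Tables were made in Python 3.11.15 with pandas 2.3.3 and scipy 1.17.1, figures with matplotlib 3.10.9. Positions came from GENCODE release 29, and symbols matched 52526 identifiers.

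The 8 genes and all lists were chosen with earlier results of these data known. Beside the 8 genes, the rule for names took the 3 called genes of each list with the smallest p among CR3, scramble and reverse, fixed paralogs, the 5 most similar profiles, the nearest tested neighbours and the genes ranked next to the members. Of the genes this rule picks, 1 has no result given here. PIEZO2 and SLC26A3 as higher ranked genes, and TNFAIP3, NFKBIA, CD74, CIITA, CD86, PNP, DISC1, SYN1, UNC5C, MARCHF10, COL1A1, VIM and the overlapping genes, were named after their values were seen. Alternatives varied the pseudocount, filter, scaling, restoring of decimals, replicate block, trend and the libraries included.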

Additional observations from a re-analysis of the deposited data

How the results depend on the processing

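The log2 differences of the 8 genes between mCherry and each other group kept their sign under all alternatives that could be fitted, with 0.94 as the smallest value. They moved with the pseudocount. Among CR3, scramble and reverse, 693 of 720 alternative values kept their side of the threshold. A call of DLEC1 or INIP was lost in 23, by library and scaling as given with those genes, and with every gene of at least 1 read tested. In that last setting the limma adjusted p was 0.0697 and 0.0768 for DLEC1 and 0.0533 for INIP. In 4 a call was gained when a single library was left out with the tested genes held, an alternative added after the data were seen. These were TNIP3 without CR3 library 2 (against scramble and reverse), SV2C without CR3 library 3 (against scramble) and TENM2 without CR3 library 1 (against reverse). Those libraries had 0, 0 and 3 reads of the gene, and these 3 genes have 0 to 4 reads in each library of the groups compared. TNIP3, SV2C and TENM2 passed the filter only through mCherry, so nothing is read from these calls.

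The 34 genes called higher in mCherry than in all 3 groups became 65 with every gene of at least 1 read, 7 with at least 50 reads in 3 libraries, and 4 when decimals were restored without the group labels, where 1 of the 8 genes could still be tested. Leaving out 1 library gave 6 to 34, the lowest values (6, 6 and 10) without an mCherry library, when 6 of the 8 genes no longer pass the filter by its construction. With the tested genes held the range was 27 to 35. The 71 genes called between reverse and scramble became 107 with every gene of at least 1 read, 36 with at least 50 reads and 17 with decimals restored without the labels, and 44 to 77 without 1 library. The causes were not tested. Scaling by library totals changed the split of CR3 against scramble from 2957 higher and 2884 lower to 4526 and 1789 and the median log2 difference of all genes from 0.01 to 0.10. With the replicate number as a block 31 and 68 genes were called in place of 34 and 71. In their deviations from group means, same-numbered libraries of different groups correlated at -0.12 to 0.06, and those of other numbers at -0.20 to 0.19. For 1 of 12 libraries the best correlated one had the same number. No pairing by number was seen, but such correlations cannot show that no batch was shared.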
